A study of Mus musculus with 6 samples.

Results

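The insulin-like growth factor (IGF) system was read in endothelial cells of the mouse cerebellum with and without the Wnt and Norrin receptor Frizzled4. It comprises here the ligand genes Igf1 and Igf2, the receptor genes Igf1r and Igf2r and the binding protein genes Igfbp2 to Igfbp7, 10 genes of 18193 named on the array. They were chosen by name, with earlier results of these data known. Every probe set (a group of short probes read as 1 value) that the array annotation gives to 1 of these symbols alone was taken, which yielded 28 of 45037 probe sets. Igf1 had 4 probe sets, Igf2 2, Igf1r 5, Igf2r 2, Igfbp2 1, Igfbp3 2, Igfbp4 6, Igfbp5 2, Igfbp6 1 and Igfbp7 3. Where a gene is given by a single value, it is that of its brightest probe set, by the mean over all arrays.

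The cells were taken at postnatal day 16 from the cerebellum of C57Bl6/129 mixed-background mice of both sexes and were captured on magnetic beads carrying an antibody to the endothelial surface protein PECAM. One group was Fz4-/- (called Fz4-null), lacking Frizzled4, the product of Fzd4, and the other was wild type, with 3 arrays each. The sources used here do not say how the Fz4-null allele was made, nor whether an array stands for 1 animal or a pool. A p-value therefore covers only the spread between these preparations. All levels are log2 RMA expression (RMA summarises the probes of a set after background correction and normalization), and all differences are Fz4-null minus wild type on the log2 scale.

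IGF1 and IGF2 are secreted growth factors that signal through the IGF1 receptor, a tyrosine kinase that activates the PI3K, Akt and MAP kinase routes. The IGF2 receptor, which is also the cation-independent mannose 6-phosphate receptor, does not signal in this way but takes IGF2 into lysosomes and sorts lysosomal enzymes. The binding proteins hold IGFs in the extracellular space, prolong their life and limit or deliver them to the receptor. In brain, IGF1 is known from neurons and microglia, IGF2 from the meninges, choroid plexus and vessel-associated cells, and IGFBP7 and IGFBP3 from endothelium.

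The targeted gene and the endothelial markers were checked against the labels first. The brightest Fzd4 probe set read 10.80, 10.20 and 10.88 in wild-type replicates 1 to 3. In Fz4-null replicates 1 to 3 it read 3.04, 4.03 and 4.0 (limma adjusted p = 0.00965, and 0.127 with the replicate number as a block). The other Fzd4 probe sets differed by -4.95 and -1.74 and did not pass (limma adjusted p = 0.0769 and 0.85). The mean of 11 measured pan-endothelial markers of 12 listed lay between 11.60 and 11.68 in wild type and between 11.73 and 11.86 in the null arrays, while their median difference was 0.02, with 4 of 11 lower in the null arrays. Markers of other cells were present as well, and Fz4-null replicate 1 stood apart in them. There 11 of 12 fibroblast markers, 10 of 11 measured microglia and macrophage markers, 10 of 11 pericyte and smooth muscle markers and 9 of 10 astrocyte markers read below every wild-type array. Choroid plexus markers were strongest in wild-type replicate 3, with a mean of 7.66 against 5.59 to 5.72 in the other wild-type arrays and 4.61 to 5.06 in the null arrays. In such preparations, fewer cells of a type and less RNA per cell cannot be told apart.

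No member passed the test across all probe sets. With limma and Benjamini-Hochberg adjustment at 0.05, 0 of 28 probe sets and 0 of 10 genes were called, where 0.0111% of all probe sets and 0.0220% of all genes were. At an unadjusted limma p under 0.05 there were 6 member probe sets, 3 of Igf1 (higher in the null arrays) and 3 of Igf1r (lower), against 4.46% of all probe sets, and 1 gene, Igf1, against 4.60% of all genes. The 3 null arrays lay above all 3 wild-type arrays for 7 of 28 member probe sets and 4 of 10 genes, namely Igf1, Igf2r, Igfbp3 and Igfbp7, against 4.08% of all probe sets and 4.59% of all genes. They lay below all wild-type arrays for 4 of 28 probe sets, each of them of Igf1r, and 0 of 10 genes, against 5.18% and 4.95%. Probe sets of 1 gene share its transcripts and are not independent. The members were also chosen with earlier results of these data known, so these shares are a description and not a test of the group. The median difference over the 10 genes was 0.06, and over all genes 0.008, and the members' median turned to -0.19 without Fz4-null replicate 2, -0.15 without wild-type replicate 1, -0.07 without wild-type replicate 2 and -0.03 without Fz4-null replicate 3.

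**Figure D1:**
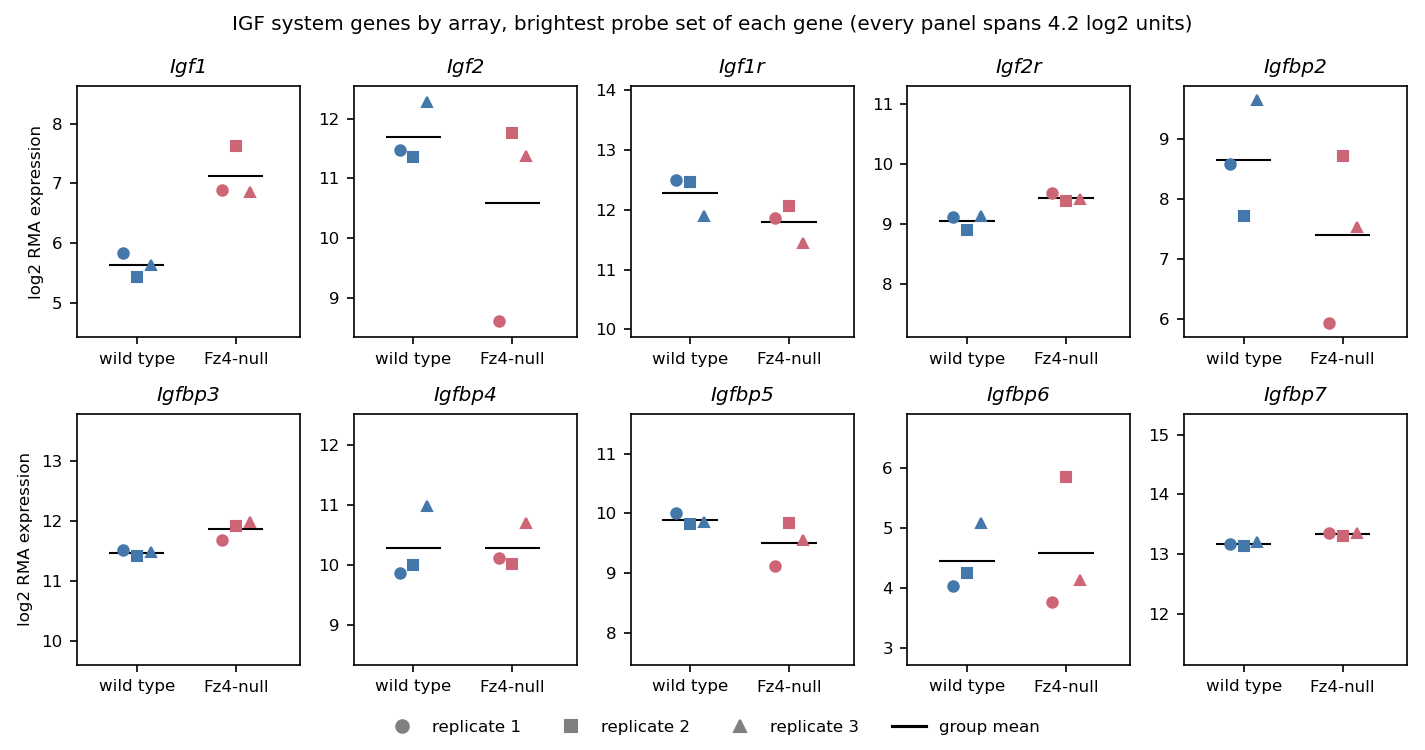
Log2 RMA expression (y axis) of the 10 IGF system genes on each array, by genotype (x axis), read from each gene's brightest probe set; symbols mark the replicate number and black bars the group means, and every panel spans the same height. Igf1 lies higher in all 3 Fz4-null arrays, at 6.86 to 7.62 against 5.44 to 5.83, while Igf2 and Igfbp2 are lowest in Fz4-null replicate 1, at 8.62 and 5.93.

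Igf1, the ligand that signals through the IGF1 receptor, showed the member difference with the lowest p. Its brightest probe set (1434413_at) read 5.83, 5.44 and 5.63 in wild-type replicates 1 to 3, against 6.89, 7.62 and 6.86 in Fz4-null replicates 1 to 3. All 3 null arrays lay above all wild-type arrays, with Fz4-null replicate 2 the highest. The means were 5.63 ± 0.19 in wild type, against 7.12 ± 0.43 in the null arrays (SD, n = 3), a difference of 1.49 (SE 0.26, 95% confidence interval 0.88 to 2.11) or 2.82-fold, with limma unadjusted p = 0.000763 and adjusted p = 0.484. It did not pass after adjustment. By replicate number the differences were 1.06, 2.18 and 1.24, whose shared sign follows from the lack of overlap and adds no support.

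The other Igf1 probe sets read higher in the null arrays too. Probe set 1452014_a_at read 5.77, 6.09 and 6.07 in wild type, against 6.42, 7.05 and 6.87 in the null arrays, a difference of 0.80 (SE 0.23, adjusted p = 0.913), with no overlap. Probe set 1419519_at read 4.54, 4.44 and 5.15 against 5.43, 6.10 and 5.52, a difference of 0.97 (SE 0.28, adjusted p = 0.927), again with no overlap. Probe set 1437401_at read 5.12, 5.91 and 5.28 against 5.83, 7.82 and 6.2, and here Fz4-null replicate 1 lay below wild-type replicate 2 (difference 1.18, SE 0.53, adjusted p = 1.00). All 4 stayed higher in the null arrays when any 1 array was left out. For the 3 without overlap that outcome was fixed in advance, and only 1437401_at could have changed sign. The wild-type means of these probe sets, 4.71 to 5.98, lie around the array medians of 5.52 to 5.58, a range in which RMA can understate a difference.

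Cells other than endothelium that make Igf1 were set beside these values. The mean of the microglia and macrophage markers was 7.86, 8.01 and 7.65 in wild-type replicates 1 to 3, against 5.18, 8.02 and 7.59 in Fz4-null replicates 1 to 3. On Fz4-null replicate 1, where that mean was lowest, Igf1 read 1.26 above its wild-type mean, and without that array the Igf1 difference was 1.61. Each Igf1 probe set was highest on Fz4-null replicate 2, where the fibroblast marker mean (10.05) was highest too. The microglia and macrophage mean on that array (8.02) was almost the same as on wild-type replicate 2 (8.01). The granule neuron marker mean was 5.11, 5.27 and 6.11 in wild type, against 4.29, 5.42 and 5.91 in the null arrays. The part of these cells in the Igf1 difference was not tested.

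Igf2, the fetal growth factor of the pair, was bright and did not pass. Its brightest probe set read 11.47, 11.35 and 12.27 in wild-type replicates 1 to 3, against 8.62, 11.76 and 11.38 in Fz4-null replicates 1 to 3. Fz4-null replicate 1 stood alone at the bottom, and the other null arrays lay within the wild-type range. The difference of -1.11 (SE 0.81, 95% confidence interval -3.02 to 0.81, limma adjusted p = 1.00) shrank to -0.12 without that array. The dimmer Igf2 probe set, between 2.76 and 4.75 on all arrays and near their lower quartiles of 3.46 to 3.64, differed by -0.28 (SE 0.52).

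The fibroblast marker mean took a like course, at 9.62, 9.61 and 9.95 in wild type and 7.51, 10.05 and 9.08 in Fz4-null replicates 1 to 3. Dcn, a proteoglycan of fibroblasts, read 6.41 on Fz4-null replicate 1 and 9.80 to 11.29 on the other 5 arrays. Other lists were low on Fz4-null replicate 1 as well. Relative to wild type, Igf2 deviated by -3.07, 0.07 and -0.31 on Fz4-null replicates 1 to 3. The microglia and macrophage mean deviated by -2.66, 0.18 and -0.25. On Fz4-null replicate 1 the astrocyte mean deviated by -1.8 and the pericyte and smooth muscle mean by -1.24. None of the 12 fibroblast or 11 measured microglia and macrophage markers lay below the lower quartile on all arrays, whereas 1 of 10 measured choroid plexus markers did. The part of these cells in the Igf2 values was not tested.

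The receptor genes read in opposite directions, with 0 of their 7 probe sets past the threshold and 3, all of Igf1r, at an unadjusted limma p under 0.05. Igf1r read lower in the null arrays on all 5 of its probe sets, and Igf2r higher on both of its own. The 250 bases before the RefSeq start of each receptor gene are shown as a description (assembly GRCm38.p6, 5′ to 3′ on the gene's strand). Igf1r lies on the plus strand, with the window at chr7:67952007-67952256, and Igf2r on the minus strand, with the window at chr17:12769707-12769956. Capitals mark CTTTGA, the core of the motif bound by TCF and LEF factors, the DNA-binding partners of beta-catenin, searched on both strands (so also as TCAAAG).
Igf1r: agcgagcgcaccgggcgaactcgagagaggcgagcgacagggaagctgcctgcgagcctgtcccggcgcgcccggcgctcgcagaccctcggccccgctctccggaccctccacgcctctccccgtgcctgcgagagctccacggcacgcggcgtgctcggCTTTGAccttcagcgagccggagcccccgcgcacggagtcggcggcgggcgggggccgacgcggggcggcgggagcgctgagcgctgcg
Igf2r: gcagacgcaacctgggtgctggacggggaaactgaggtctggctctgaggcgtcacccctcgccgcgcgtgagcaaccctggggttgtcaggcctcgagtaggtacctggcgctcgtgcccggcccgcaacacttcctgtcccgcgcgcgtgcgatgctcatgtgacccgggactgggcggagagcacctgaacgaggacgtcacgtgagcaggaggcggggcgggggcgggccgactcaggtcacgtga
The Igf1r window holds the motif once, starting 89 bases before the transcript start, and the Igf2r window does not hold these letters. Among the 14 RefSeq windows of the 10 members, 3 hold it, 1 each of Igf1, Igf2 and Igf1r, against 13.8% of all 32851 windows. The Igf1 window begins inside the annotated span of the gene and may hold part of another transcript, so its match need not lie in a promoter. A match of these letters is a description and does not show binding, and its relation to the differences was not tested. The windows also differ in base composition, with 77.6% G and C in Igf1r and 69.2% in Igf2r.

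Igf1r encodes the tyrosine kinase through which IGF1 and IGF2 signal. Its brightest probe set (1428967_at) read 12.49, 12.47 and 11.90 in wild-type replicates 1 to 3, against 11.86, 12.06 and 11.45 in the null arrays. The groups overlapped, since wild-type replicate 3 lay below Fz4-null replicate 2. The difference was -0.50 (SE 0.25, 95% confidence interval -1.10 to 0.11, limma adjusted p = 1.00), and by replicate number it was -0.62, -0.41 and -0.46.

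The remaining Igf1r probe sets did not overlap between the groups. Probe set 1452982_at read 10.73, 10.55 and 10.59 in wild type, against 9.85, 10.04 and 9.95 in the null arrays, with means of 10.62 ± 0.09 and 9.95 ± 0.10 (SD, n = 3). That is a difference of -0.68 (SE 0.16, 95% confidence interval -1.07 to -0.29), a level 1.6-fold lower in the null arrays, with limma unadjusted p = 0.00477 and adjusted p = 0.802. Probe set 1426565_at read 8.12, 7.98 and 8.01 against 7.44, 7.51 and 7.43, a difference of -0.58 (SE 0.16, adjusted p = 0.897). Both dimmer probe sets, 1446303_at and 1452108_at, differed by -0.48 (SE 0.21) and -0.55 (SE 0.22). All 5 Igf1r probe sets kept their sign when any 1 array was left out, with single values between -0.32 and -0.72. For the 4 without overlap that sign was fixed in advance, and only 1428967_at could have changed it.

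**Figure D2:**
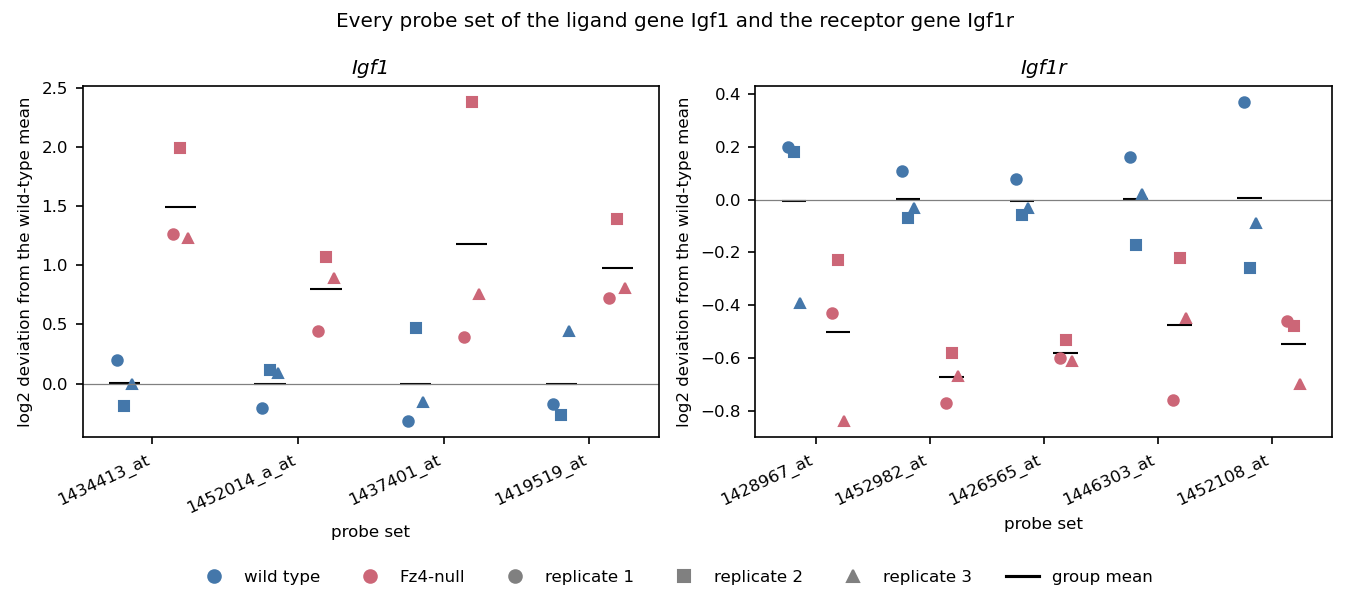
Deviation of every Igf1 (left) and Igf1r (right) probe set from its own wild-type mean, in log2 units (y axis), by probe set (x axis); colours mark the genotype, symbols the replicate number and black bars the group means, and the panels have different y scales. The Igf1 null means lie 0.80 to 1.49 above wild type, and the Igf1r null means lie below it, at -0.68 to -0.48.

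Igf2r, the lysosomal sorting receptor that removes IGF2, read 9.11, 8.89 and 9.13 in wild-type replicates 1 to 3, against 9.52, 9.38 and 9.42 in the null arrays. All null arrays lay above all wild-type arrays. The difference was 0.40 (SE 0.17, 1.32-fold, limma unadjusted p = 0.0513, adjusted p = 1.00) and was 0.41, 0.49 and 0.29 by replicate number. The dimmer Igf2r probe set differed by 0.57 (SE 0.40), with overlapping groups.

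Igfbp3 and Igfbp7, binding proteins of endothelium, read slightly higher in the null arrays. Igfbp3, which encodes the main carrier of IGFs in serum, read 11.51, 11.41 and 11.49 in wild-type replicates 1 to 3, against 11.68, 11.92 and 11.98 in the null arrays. The groups did not overlap, and the difference was 0.39 (SE 0.17, 95% confidence interval -0.02 to 0.80, limma adjusted p = 1.00). Its second probe set read 10.86, 11.01 and 10.71 against 11.07, 11.76 and 11.21, a difference of 0.49 (SE 0.23), also with no overlap.

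Igfbp7, a binding protein with low affinity for IGFs that is laid down in the vessel wall, read 13.17, 13.14 and 13.20 in wild type, against 13.35, 13.30 and 13.36 in the null arrays. The groups did not overlap because both were tight (SD 0.03 each), yet the difference was only 0.16 (SE 0.16, 1.12-fold, limma adjusted p = 1.00). Both other probe sets overlapped between the groups and differed by 0.35 (SE 0.21) and 0.51 (SE 0.25). The pan-endothelial marker mean lay 0.22, 0.14 and 0.10 above its wild-type level on Fz4-null replicates 1 to 3, next to 0.18, 0.13 and 0.19 for Igfbp7 and 0.21, 0.45 and 0.51 for Igfbp3. The median marker differed by only 0.02, and 3 and 4 of the 11 markers read below every wild-type array on Fz4-null replicates 2 and 3. The part of endothelial purity in these values was not tested.

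Igfbp2, a binding protein made by choroid plexus, meninges and glia, varied most between arrays. It read 8.58, 7.72 and 9.65 in wild-type replicates 1 to 3, against 5.93, 8.72 and 7.53 in Fz4-null replicates 1 to 3. The groups overlapped, with the lowest value on the array that was low in fibroblast and glial markers and the highest on the array where choroid plexus markers were strongest. The difference of -1.26 (SE 0.77, 95% confidence interval -3.09 to 0.57, limma adjusted p = 1.00) was -0.53 without Fz4-null replicate 1 and -0.76 without wild-type replicate 3. The part of these cells in the Igfbp2 values was not tested.

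Igfbp4, which restrains IGF action until it is cut by the protease PAPP-A, had differences near 0. Its brightest probe set read 9.87, 10.00 and 10.98 in wild type, against 10.12, 10.01 and 10.70 in the null arrays. Both arrays numbered 3 were the high ones, and the difference was -0.01 (SE 0.35, 95% confidence interval -0.84 to 0.82). Over all 6 Igfbp4 probe sets, differences lay between -0.06 and 0.09. In the 2 probe sets 1421992_a_at and 1421991_a_at, both arrays numbered 3 were instead the lowest of their groups, at 7.65 and 7.98 in the first and at 6.30 and 6.27 in the second, for the null and the wild-type array.

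Igfbp5, which binds matrix and is made by mural cells and fibroblasts among others, read 10.01, 9.82 and 9.85 in wild type, against 9.12, 9.84 and 9.55 in the null arrays. Fz4-null replicate 1 was the lowest, and Fz4-null replicate 2 lay within the wild-type range. The difference of -0.39 (SE 0.23, limma adjusted p = 1.00) was -0.19 without Fz4-null replicate 1, the array on which the pericyte and smooth muscle marker mean was 9.28 against 10.39 to 10.78 in wild type. The second Igfbp5 probe set was lowest on both arrays numbered 3, reading 9.25, 7.76 and 5.43 in wild type, against 7.44, 8.46 and 5.19 in the null arrays (difference -0.45, SE 1.14).

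Igfbp6, a binding protein that prefers IGF2, was dim, at 4.03, 4.24 and 5.09 in wild type, against 3.77, 5.85 and 4.13 in the null arrays. It was highest on Fz4-null replicate 2, the array with the highest fibroblast marker mean (10.05). The difference of 0.13 (SE 0.57) changed sign without Fz4-null replicate 2 (-0.51) or wild-type replicate 1 (-0.08), so no direction is given for it.

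**Figure D3:**
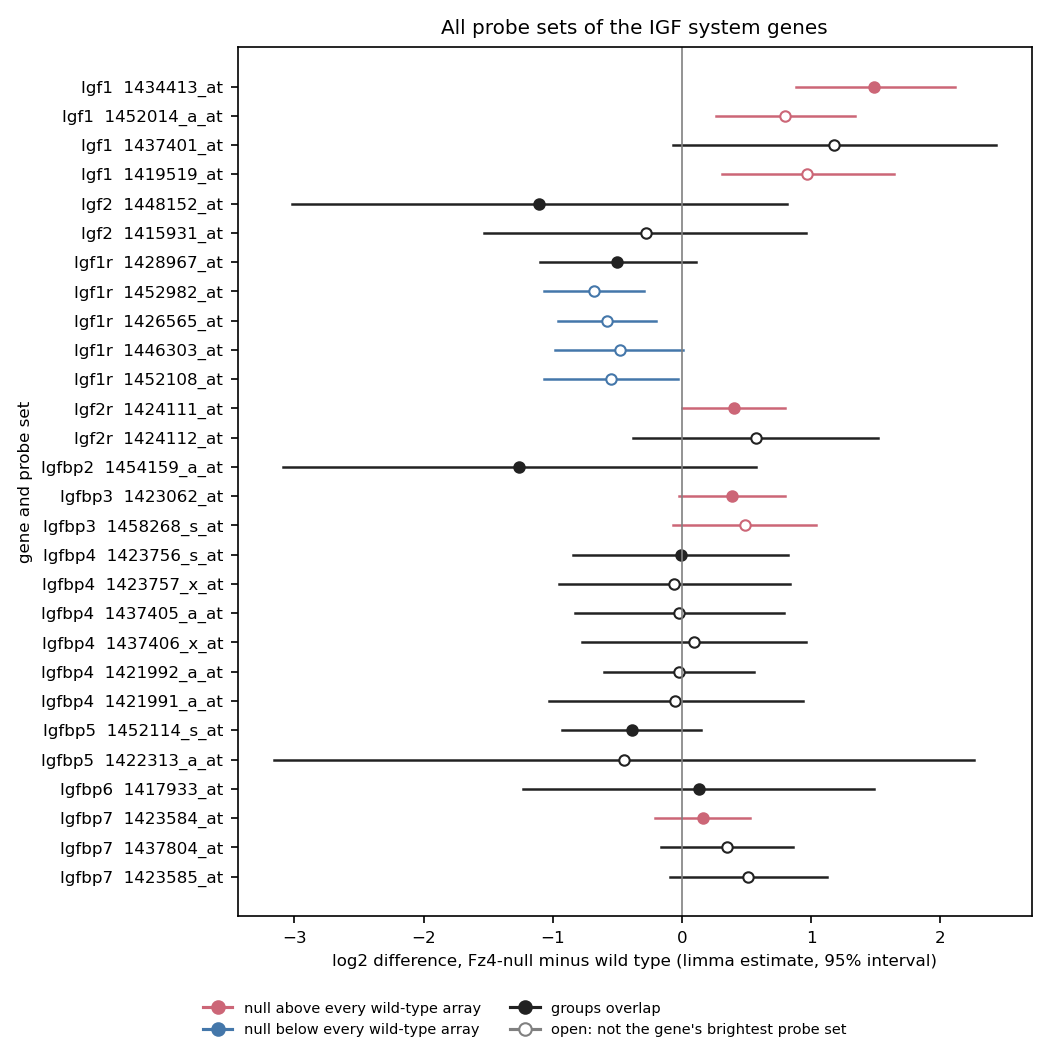
Log2 difference, Fz4-null minus wild type (x axis), of all 28 IGF system probe sets (y axis) as estimated by limma, with 95% confidence intervals as lines; colour marks whether the 3 null arrays lay above (red) or below (blue) all 3 wild-type arrays, and filled points mark each gene's brightest probe set. The 4 Igf1 points lie right of 0 and the 5 Igf1r points left of it, while the intervals of Igf2 and Igfbp2 span several log2 units and include 0.

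**Figure D4:**
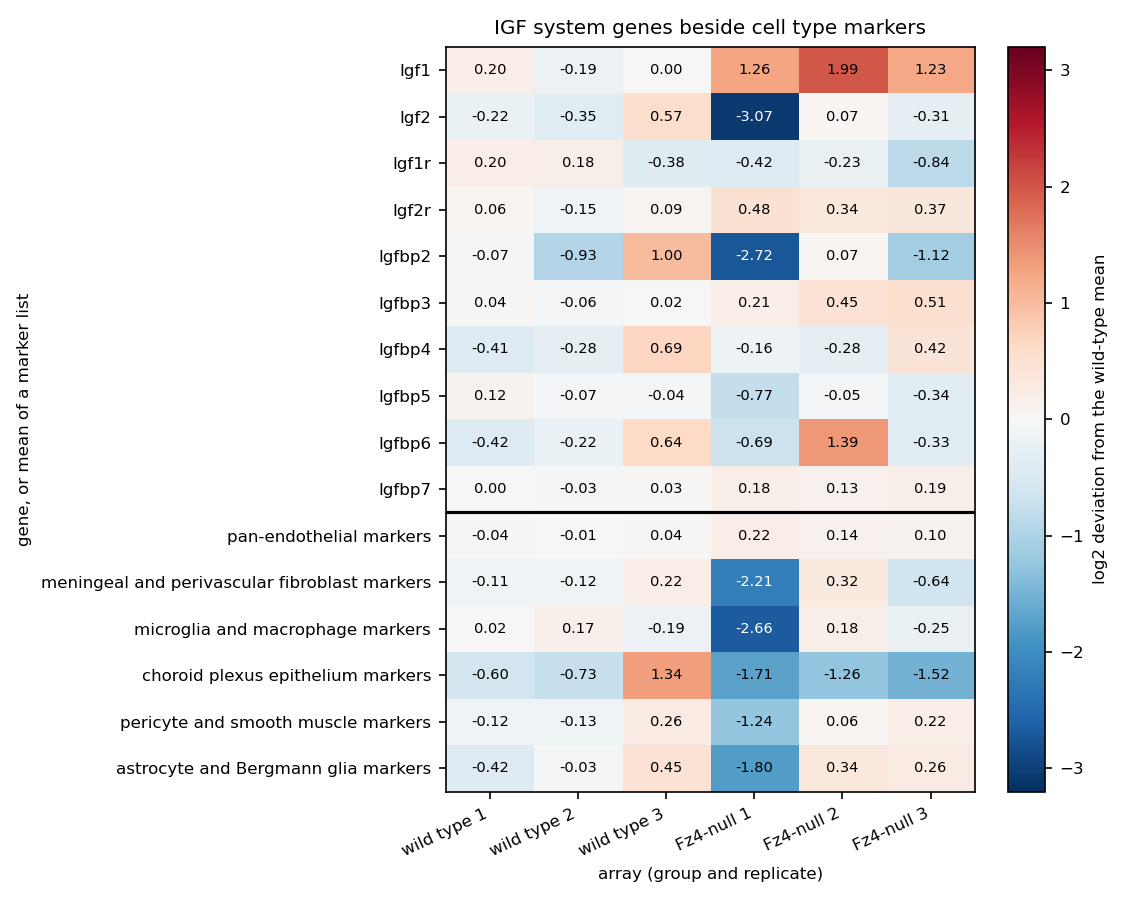
Log2 deviation from the wild-type mean (colour scale and printed values) on each array (x axis) for the 10 IGF system genes and, under the black line, for the means of cell type marker lists. Fz4-null replicate 1 is low for Igf2 (-3.07) and Igfbp2 (-2.72) and for fibroblast (-2.21) and microglia (-2.66) markers, while Igf1 is 1.23 to 1.99 above its wild-type mean on all 3 null arrays.

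The genes with array profiles nearest to those of the members were sought for the 3 members with the widest range, Igfbp2, Igf2 and Igf1. Likeness was the root mean square distance between log2 values centred on each gene's own mean over the 6 arrays. It was sought among 9113 genes whose mean exceeded log2 of 100. Igf1 itself, with a mean of 6.38, lies under this limit, so other genes as dim as Igf1 were not searched. Nearest to Igf1 were the lipid phosphatase Plpp3 (distance 0.20), the apoptosis factor Bik (0.23) and Stox1 (0.24). Their own differences of 1.21, 1.41 and 1.31 did not pass (limma adjusted p = 0.436, 0.571 and 0.615). Nearest to Igf2 were Dock10 (0.22), the connective tissue proteoglycan Prelp (0.25) and the basement membrane collagen Col4a6 (0.27). Each of these was lowest on Fz4-null replicate 1, at 4.72, 5.56 and 4.53. Nearest to Igfbp2 were the retinaldehyde dehydrogenase Aldh1a1 (0.39), Prelp (0.41) and the thioesterase Acot11 (0.43). With 6 arrays, many genes can share a profile.

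Of 82 other genes of the IGF pathway, 72 had a probe set of their own and 1, Esm1, passed the test, higher in the null arrays (1 of 72 genes, against 0.0220% of all genes). At an unadjusted limma p under 0.05 there were 2 higher and 3 lower, near the share of all genes at that p (4.60%). The median difference of the 72 was 0.07. Esm1, a proteoglycan sometimes counted with the IGF binding protein relatives, was already known to differ when the list was written, so its call is no independent evidence. It read 5.52 ± 0.16 in wild type, against 9.43 ± 0.44 in the null arrays (SD, n = 3), a rise of 3.91 (SE 0.26, adjusted p = 0.0189). With the replicate block the adjusted p was 0.127, and without any 1 array it was 0.0656 to 0.218, so the call at 0.05 needs all 6 arrays. The difference itself stayed between 3.66 and 4.07 without any 1 array, in fits that hold fewer arrays.

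Partners and adaptors of the receptor were called in 0 of 12 cases, with 5 higher, 7 lower and 1 at an unadjusted limma p under 0.05, against 4.60% of all genes. That gene was Grb14, an adaptor that inhibits insulin receptor signalling, at 9.88 ± 0.39 in wild type, against 9.11 ± 0.32 in the null arrays (SD, n = 3; difference -0.77, SE 0.27, adjusted p = 1.00). Irs1, a docking protein that links the receptors to PI3K, read 8.60, 8.71 and 8.56 in wild type, against 7.32, 8.48 and 8.25 in the null arrays, with no overlap (difference -0.61, SE 0.31). Irs2, a second docking protein, was lowest on Fz4-null replicate 1, at 4.70 against 6.52 to 7.22 on the other 5 arrays (difference -0.73, SE 0.60). Insr, the insulin receptor gene, differed by 0.08 (SE 0.21).

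The signalling branches under the receptor were called in 0 cases and had small medians. For PI3K, Akt and mTOR genes the median of 19 was 0.07, with none at an unadjusted limma p under 0.05 and the lowest p for Pik3r3 (0.48, SE 0.26), a PI3K regulatory subunit, and Rptor (0.38, SE 0.23), an mTOR complex subunit. For the 4 Ras and MAP kinase genes measured it was 0.14, with 0 at that unadjusted p and the lowest p for the kinases Braf (-0.26, SE 0.21) and Map2k1 (0.16, SE 0.19). Of 8 feedback inhibitors, 7 read higher and 1 lower, with 0 at that unadjusted p and a median of 0.11. The lowest p among them belonged to the lipid phosphatase Inpp5d (0.36, SE 0.22) and the tyrosine phosphatase Ptpn1 (0.29, SE 0.22).

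Among the proteases of binding proteins, their inhibitors and other IGF binders, 7 of 12 read higher and 5 lower. Stc2, stanniocalcin-2, an inhibitor of PAPP-A, was chosen after its values were seen and read 6.27, 5.63 and 6.15 in wild type, against 6.83, 7.30 and 6.75 in the null arrays. The groups did not overlap, and the difference was 0.94 (SE 0.25, limma unadjusted p = 0.00774, adjusted p = 0.885). Igfbp1, a binding protein best known from liver, read 10.84, 10.37 and 10.20 in wild type, against 10.25, 10.41 and 9.5 in the null arrays (difference -0.42, SE 0.30). The mRNA-binding and imprinted partners had 0 of 8 called and 2 at an unadjusted limma p under 0.05, both lower, against 4.60% of all genes. Igf2bp1, which encodes a protein that binds Igf2 mRNA, was at 3.96 ± 0.23 in wild type, against 3.23 ± 0.20 in the null arrays (SD, n = 3; difference -0.73, SE 0.21, adjusted p = 0.913), about the arrays' lower quartiles. Cdkn1c, an imprinted cell cycle inhibitor, was at 9.05 ± 0.33 and 8.25 ± 0.48 (difference -0.80, SE 0.30, adjusted p = 1.00). Proposed receptors of binding proteins and lysosomal sorting partners had 0 of 10 called, 0 at an unadjusted limma p under 0.05 and a median of 0.06, with the lowest p for Nagpa (0.27, SE 0.27) and Tmem219 (0.31, SE 0.35).

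**Figure D5:**
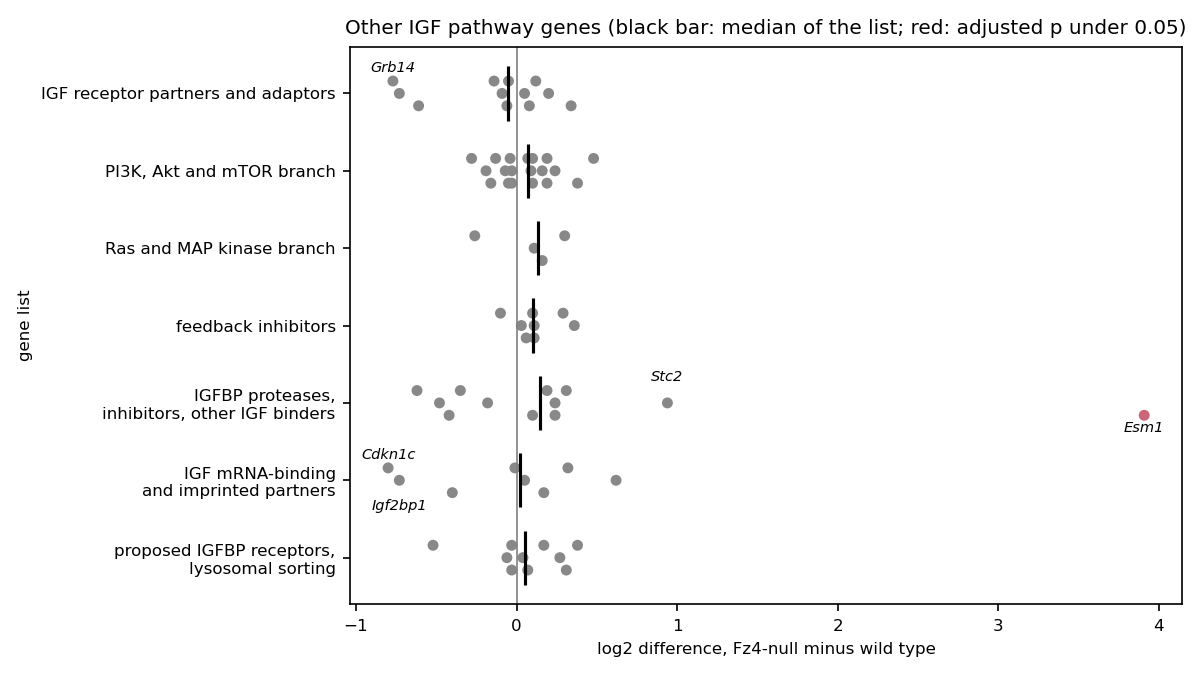
Log2 difference, Fz4-null minus wild type (x axis), of the other IGF pathway genes, by list (y axis), with 1 point per gene in each list. Black bars are list medians, red marks an adjusted p under 0.05 and names are given at an unadjusted limma p under 0.05. Esm1 stands at 3.91, and every other gene lies between -0.80 and 0.94.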

How the data were processed

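The deposited table holds log2 expression of 45101 probe sets on 6 arrays, made by the authors with RMA, per the submitters' processing notes. The sources used here do not give its version. Differences near background are compressed by this method. The 64 Affymetrix controls were left out and 45037 probe sets tested by lmFit and eBayes of limma 3.58.1 (R 4.3.3, no covariate, two-sided) on 3 against 3 arrays, with Benjamini-Hochberg adjustment over all of them. limma was tested on simulated data first. Names came from the array annotation, where 34945 probe sets had 1 symbol, 932 several and 9160 none, and all 28 member probe sets matched the RefSeq table of GRCm38.p6 by gene identifier. The files hold no counts, so no depth applies, and precision is limited by the number of arrays. No pair of arrays shared over 0.351% of values.

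Members and lists were chosen with earlier results of these data known. Named genes were all members, Fzd4, Insr, Irs1, Irs2, Igfbp1 and, per pathway list, the genes past the threshold (at most 3) or otherwise the 2 with the lowest p, and the 3 genes nearest in profile to each of the 3 members of widest range. Stc2, outside this rule, was chosen after its values were seen. Grb10 stood in 2 lists and was counted once in the total.

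Replicate numbers 1 to 3 occur in both groups, per the labels. Deviations from the group means of same-numbered arrays correlated over probe sets at 0.244, 0.303 and 0.574, all over the minimum of 0.1 for pairing. But null replicate 2 also correlated with wild-type replicate 1 at 0.262 and null replicate 1 with wild-type replicate 2 at 0.124. Unlike-numbered pairs that included an array numbered 3 correlated negatively, at -0.463 to -0.249. The replicate block was fitted as an alternative, beside 2 normalizations, a filter on dim probe sets, a variance trend, array weights, other probe set choices, other thresholds and leaving out each array. Figures were drawn with matplotlib 3.10.9.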

Additional observations from a re-analysis of the deposited data

How the results depend on the processing

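No IGF system gene passed an adjusted p of 0.05 under any alternative that refitted the arrays, nor an adjusted p of 0.1, and 1 did at an unadjusted limma p of 0.05. With the replicate block 0 of 10 members passed, with a lowest adjusted p of 0.434 for Igf1. With it 0 other pathway genes passed in place of 1, Esm1. Fzd4, the targeted gene, did not pass with the block either (lowest limma adjusted p = 0.127). A lack of calls under the block therefore says little about the members. Leaving out any 1 array also left 0 pathway genes past the threshold, while the Esm1 difference stayed between 3.66 and 4.07. The block changed no other call among the members and these lists, while 3 members had an unadjusted limma p under 0.05 with it against 1 without (8.89% of all genes with it, 4.60% without). Over the alternatives, Igf1 stayed between 1.11 and 1.62 (lowest adjusted p 0.234, with array weights), Igf1r between -0.69 and -0.32, Igf2r between 0.32 and 0.48, Igfbp3 between 0.33 and 0.48, Igfbp7 between 0.15 and 0.34, Igf2 between -1.69 and -0.12, Igfbp2 between -1.92 and -0.53 and Igfbp5 between -0.56 and -0.19. Igfbp4 turned to 0.17 with array weights and lay between -0.22 and 0.34 with 1 array left out, and Igfbp6 lay between -0.51 and 0.53. Igfbp6 fell under the filter on dim probe sets and has no value there. The members' median difference lay between -0.19 and 0.26 with 1 array left out, the highest without wild-type replicate 3, and was -0.007 with the filter on dim probe sets. The cause of these changes was not tested. Standard errors of the member differences ran from 0.16 to 1.14 with these 6 arrays, and RMA can understate differences of dim probe sets.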

Other observations

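Probe sets beside the members, which the annotation gives to an antisense gene or to several genes, showed no difference past the limma threshold. Igf2os, the antisense transcript of the Igf2 locus, read 4.4, 4.78 and 4.41 in wild-type replicates 1 to 3 and 4.11, 4.31 and 3.86 in Fz4-null replicates 1 to 3, with no overlap (difference -0.44, SE 0.21, limma adjusted p = 1.00). Igf1os read 5.07, 5.55 and 4.97 in wild type and 5.2, 5.09 and 4.99 in the null arrays (difference -0.10, SE 0.21). The probe set given to both Igf2r and its antisense gene Airn differed by -0.12 (SE 0.27). Their means over the 6 arrays of 4.31, 5.15 and 4.45 lie below the array medians of 5.52 to 5.58.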
